A study of Mus musculus with 2 samples.

Results

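The microRNA genes Mir148a, Mir148b and Mir152 form a family of 3 among the 1973 miRNA genes counted in facial prominence tissue of mouse embryos at day 13.5. They were chosen by name, as the genes whose main products carry the same seed, and each was matched to its row by Ensembl identifier. The tissue, from which the face, palate and nose develop, came from healthy embryos of the B6NCrl strain, with both sexes pooled, and no agent or mutation is named in the labels. The labels give 2 libraries of RNA below 30 bases as biological replicates 1 and 2 of this single group, from separate biosamples with the same donor entry. The data therefore give the level of each gene and its spread between the libraries, and no contrast between conditions.

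A miRNA is cut from a hairpin transcript, loaded into an Argonaute protein and guides it to messenger RNAs that pair with its seed, bases 2 to 8 from its 5′ end. The Mir148 and Mir152 family is known for repressing the DNA methyltransferase transcript Dnmt1, among other targets, and miR-148a is known as an abundant miRNA of the liver. Because members with a shared seed can act on overlapping sets of messages, their summed level matters as well as the level of each.

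The products of the 3′ arm show what the family shares. They are given 5′ to 3′ from RefSeq (GRCm38.p6), with the seed in capitals, because the seed defines the family and the bases after it are what lets a read be placed at a single locus.
miR-148a-3p: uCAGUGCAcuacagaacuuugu
miR-148b-3p: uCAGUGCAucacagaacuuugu
miR-152-3p: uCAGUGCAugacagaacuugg

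These 3 sequences were identical at 18 of the 21 positions they have in common, including the first 8. Counted from 1 at the 5′ end, with the base of miR-148a-3p given first, miR-148b-3p differed by C9U and U10C. Against miR-148a-3p, miR-152-3p differed by C9U, U10G and U20G. Between miR-148b-3p and miR-152-3p the differences were C10G and U20G. No other gene of the RefSeq miRNA table has a product with this seed. Each of the 3 sequences lay in a single hairpin of that table, so full-length reads of the members have 1 matching locus there.

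The 5′ arms divided the family differently. Their products are shown with bases 2 to 8 in capitals to make that division visible.
miR-148a-5p: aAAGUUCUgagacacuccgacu
miR-148b-5p: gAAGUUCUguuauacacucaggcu
miR-152-5p: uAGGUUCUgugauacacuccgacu

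The 5′ products of Mir148a and Mir148b shared a seed with each other and with no other gene in the table, while the seed of miR-152-5p was found there in Mir152 alone. The deposited counts are per hairpin gene and do not separate the arms, so each level below is the sum over both arms of a gene.

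The hairpins themselves differed in length, GC content and folding energy. They are printed with the 3′ arm product in capitals, to show where the shared part sits.
Mir148a: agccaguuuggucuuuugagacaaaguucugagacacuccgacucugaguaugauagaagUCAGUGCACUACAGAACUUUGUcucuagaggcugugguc
Mir148b: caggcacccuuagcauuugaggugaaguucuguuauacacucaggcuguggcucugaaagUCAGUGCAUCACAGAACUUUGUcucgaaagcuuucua
Mir152: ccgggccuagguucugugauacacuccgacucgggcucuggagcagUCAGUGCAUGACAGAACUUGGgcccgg

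The Mir148a hairpin has 99 bases, that of Mir148b 97 and that of Mir152 73. The GC content was 45.5% for Mir148a, 45.4% for Mir148b and 61.6% for Mir152, against a median of 50.5% over the 313 of 360 tested genes with a hairpin in the table. RNAfold gave minimum free energies of -41.0 kcal/mol for Mir148a, -30.9 for Mir148b and -43.5 for Mir152. Per base, the Mir152 hairpin was the most stable of the 3 at -0.596 kcal/mol, and only 5.11% of the 313 hairpins had a lower value. Mir148b was the least stable at -0.319 kcal/mol per base, with 95.2% of hairpins lower, and Mir148a stood at -0.414, near the median of -0.436. The order of stability was thus not the order of the levels.

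Mir148a was the dominant member. Its count was 6606 in replicate 1 and 9682 in replicate 2, which is 1448 CPM (95% Wilson interval 1414 to 1483) and 1678 CPM (1645 to 1711). CPM are counts per 1000000 counts on the gene strand over all miRNA genes. The intervals cover counting error only, since reads amplified without molecular identifiers are not independent molecules. No division by length was made, because a read of this size stands for 1 mature product of 21 to 24 bases in all 3 genes.

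Mir148b followed with 785 and 886 counts, or 172 CPM (160.4 to 185) in replicate 1 and 154 CPM (144 to 164) in replicate 2. Mir152 was lowest with 452 and 640 counts, or 99.1 CPM (90.4 to 109) and 111 CPM (103 to 120). Over both libraries the means were 1563 ± 162 CPM for Mir148a, 163 ± 13.1 CPM for Mir148b and 105 ± 8.36 CPM for Mir152 (SD, n = 2). The values of the 3 genes did not overlap in any library, and the gap between Mir148b and Mir152, the closest neighbours in this order, was wider than either SD. An exact sign-flip permutation test of the log2 ratio between 2 members over the libraries (two-sided) gave p = 0.5 for each of the 3 pairs, also after Benjamini-Hochberg adjustment, which is the smallest p that n = 2 allows, so the order is given as a description.

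**Figure D1:**
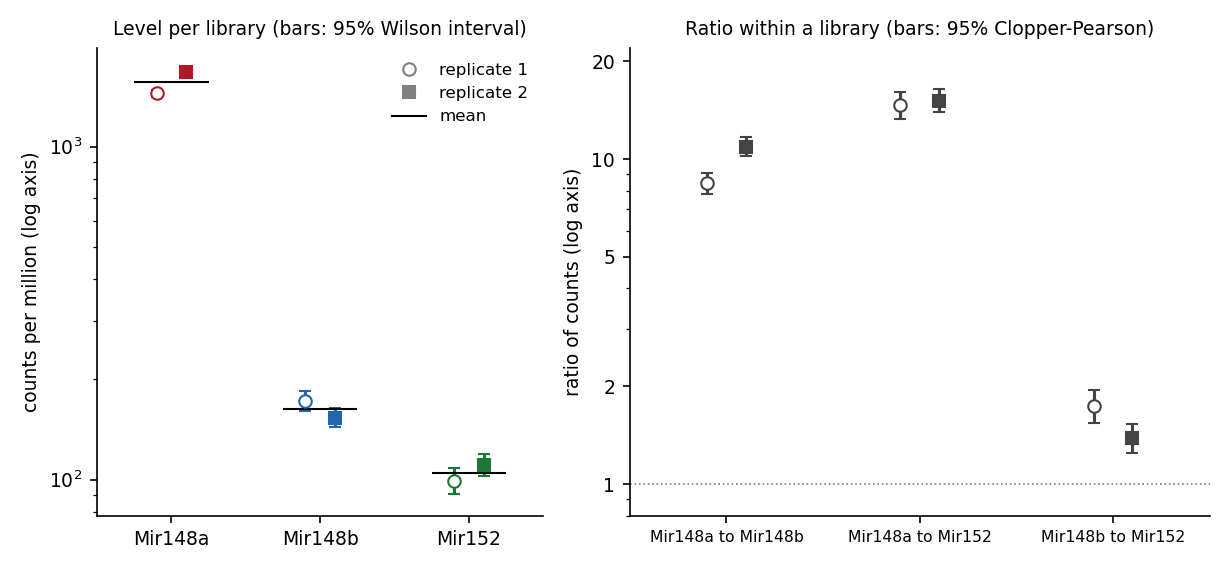
Left, the level of each member in CPM on a log axis, with an open circle for replicate 1, a filled square for replicate 2, 95% Wilson intervals as bars and the mean as a line. Right, the ratio of counts between 2 members within each library on a log axis, with 95% Clopper-Pearson intervals; Mir148a stood 8.42 to 10.9 times above Mir148b and 14.6 to 15.1 times above Mir152.

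Ratios between members do not depend on the scaling of a library, because both counts come from the same tube. They are ratios of reads between different sequences, and whether these sequences were captured equally well was not tested. The same holds for every fold between genes given below. Mir148a exceeded Mir148b by 8.42-fold in replicate 1 (95% Clopper-Pearson interval 7.81 to 9.07) and by 10.9-fold in replicate 2 (10.2 to 11.7). The 2 intervals did not overlap. Mir148a exceeded Mir152 by 14.6-fold (13.3 to 16.1) and 15.1-fold (13.96 to 16.4), with overlapping intervals. Mir148b exceeded Mir152 by 1.74-fold (1.54 to 1.95) and 1.38-fold (1.25 to 1.53), again without overlap. These intervals cover counting error only, and Mir152 has the fewest counts. In the exact binomial test between the libraries described below, which also sets them against counting error alone, 55% of the 360 genes with at least 10 counts in both libraries differed, so intervals that do not overlap are common here and single out no member.

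Together the 3 genes held 0.172% of counts in replicate 1 (95% Wilson interval 0.168 to 0.176) and 0.194% in replicate 2 (0.191 to 0.198), a mean of 0.183 ± 0.0158% (SD, n = 2). Of the family's counts, Mir148a made up 84.2% in replicate 1 and 86.4% in replicate 2. Mir148b made up 10.01% (9.36 to 10.7) and 7.91% (7.42 to 8.42). Mir152 gave 5.76% (5.27 to 6.30) and 5.71% (5.30 to 6.16). The summed level of the 3 genes over both arms, 1831 ± 158 CPM, was thus mostly that of Mir148a. It includes any reads of the 5′ arms, which do not carry the family seed.

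In the rank order of all miRNA genes, Mir148a stood at 85, Mir148b at 161 and Mir152 at 185 by mean CPM. All 3 had at least 10 counts in both libraries, as did 360 genes in all, which are called the tested genes below. Of these, 76.4% lay below Mir148a, 55.3% below Mir148b and 48.6% below Mir152. The median tested gene had 113 CPM, so Mir152 sat slightly under the middle of the tested genes. Against the 683 genes with any count at all, the 3 members stood above the middle. Reads with several places in the genome, 30.7% of the reads of replicate 1 and 31.0% of replicate 2, were not counted at any gene, which lowers genes encoded at several loci. Among the 267 tested genes whose listed mature sequences lie in a single hairpin, the ranks were 67, 129 and 144, and the median was 137 CPM. On that footing 74.9% of genes lay below Mir148a, 51.7% below Mir148b and 46.1% below Mir152.

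**Figure D2:**
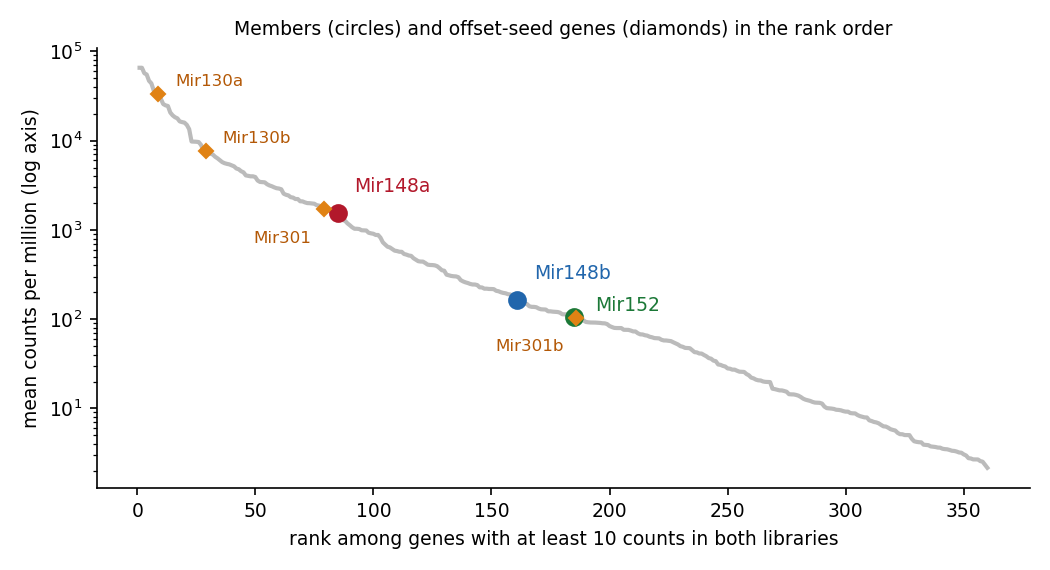
Mean CPM (log axis) against rank for the 360 tested genes, as a grey line. Circles mark Mir148a at rank 85, Mir148b at 161 and Mir152 at 185, and diamonds mark the genes of the Mir130 and Mir301 family, from Mir130a at rank 9 to Mir301b at 186.

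The genes nearest to each member in log2 CPM over the 2 libraries give a sense of scale. Mir16-1, of the growth-restraining Mir15 and Mir16 group, lay closest to Mir148a, at 1601 ± 241 CPM and a distance of 0.0804 log2 units. Mir425 (distance 0.177) and Mir381 (0.180) followed, and Mir188 was the next gene below by mean, at 1368 ± 143 CPM. Mir363, Mir669c and Mir485 were nearest to Mir148b, at distances of 0.102, 0.138 and 0.184, and Mir20b was the next above, at 181 ± 15.6 CPM. Mir345 (0.0423), Mir496a (0.0911) and Mir874 (0.160) were nearest to Mir152. With 2 libraries such likeness describes the level and little else.

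Mir148a was higher in replicate 2, by 1.16-fold (log2 ratio of replicate 2 to replicate 1 of 0.21, adjusted p = 1.35e-19 in the exact binomial test with Benjamini-Hochberg adjustment over all tested genes). Mir148b went the other way, at 1.12-fold higher in replicate 1 (log2 ratio -0.17, exact binomial test, adjusted p = 0.0381). Mir152 had a log2 ratio of 0.16 and did not pass (exact binomial test, adjusted p = 0.111). In size that ratio was close to that of Mir148b, which passed, and its direction was that of Mir148a. The test sets 2 libraries against counting error and compares them, not conditions. By it 55% of tested genes differed, 98 of 360 higher in replicate 1 and 100 higher in replicate 2, so 2 of 3 members past it is near the background.

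The call for Mir148b rested on the scaling. Its adjusted p was 0.0675 with DESeq2 size factors and 0.0823 with TMM taken over all genes, both in the exact binomial test, and its direction was the same. The difference for Mir148a passed under every scaling and count minimum tried. In size, all 3 differences were ordinary. Among the tested genes, 45.6% had a smaller difference than Mir148a, 37.5% a smaller one than Mir148b and 37.2% a smaller one than Mir152, where the median size over all tested genes was 0.24 log2 units. The coefficient of variation over the 2 libraries was 10.4% for Mir148a, 8.06% for Mir148b and 7.96% for Mir152. In whole tissue, fewer cells that make a miRNA and less of it per cell cannot be told apart.

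**Figure D3:**
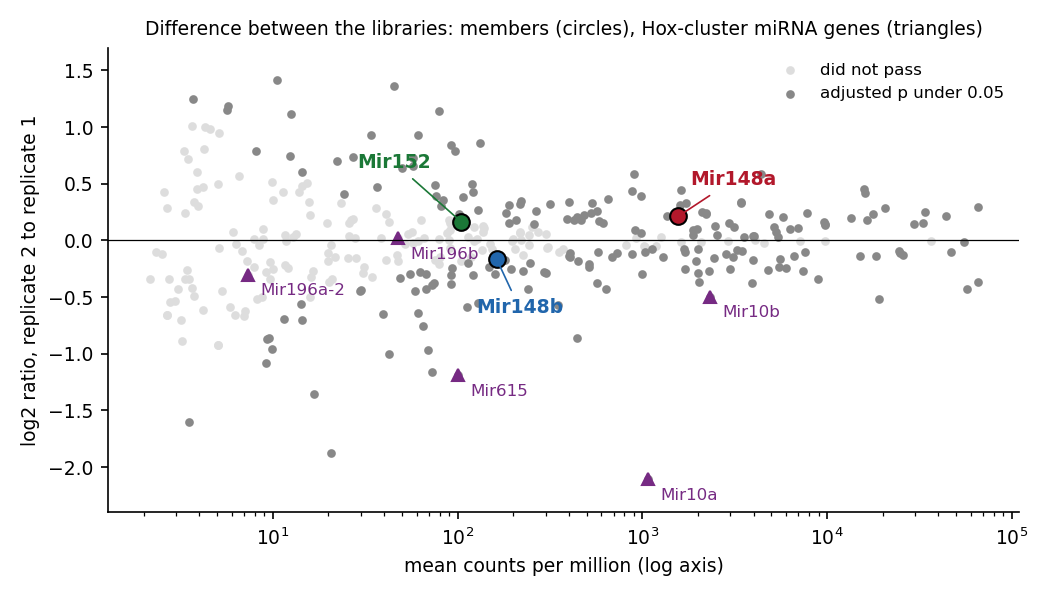
Log2 ratio of replicate 2 to replicate 1 against mean CPM (log axis) for the 360 tested genes, dark where the adjusted p was under 0.05. Mir148a and Mir152 (circles) lie above 0 at 0.21 and 0.16 and Mir148b lies below at -0.17. Of the Hox-cluster miRNA genes (triangles), Mir10a, Mir615 and Mir10b lie at -2.10, -1.19 and -0.49. Mir196b at 0.02 and Mir196a-2 at -0.30 did not pass.

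Some markers of other cell types differed between the libraries as well, and others did not. Mir122, the liver miRNA, had 49.5 CPM in the first library and 109 in the second. The red blood cell genes Mir451a, Mir144 and Mir486 summed to 101 and 160.1 CPM. Of them 2 were higher in replicate 2, while Mir486, at 10.3 and 9.01 CPM, did not pass. The 8 mesenchyme and cartilage genes summed to 66010 and 70945 CPM, with 6 higher in replicate 2 and 2 higher in replicate 1, and the 7 epithelial genes summed to 63539 and 63309 CPM, with 5 higher in replicate 2 and 2 higher in replicate 1. Mesenchymal and epithelial markers, both parts of the labelled tissue, were thus abundant in both libraries. The endothelial gene Mir126a was at 25810 and 23871 CPM. These counts stand against 55% of all tested genes that passed, in about equal numbers in each direction. The 5 muscle genes summed to 632 and 404 CPM. That sum was mostly Mir206, at 570 and 314 CPM, the only one higher in replicate 1, while 3 were higher in replicate 2 and 1 did not pass. The neural genes summed to 617 and 616 CPM, with 2 of the 6 tested higher in replicate 2, 1 higher in replicate 1 (Mir219a-2, log2 ratio -1.88) and 3 not past the test. Of the 10 neural genes in the files, Mir124a-1, Mir124a-3 and Mir9-2 had no count in either library, but they are copies of miRNAs named at several loci, whose shared reads were not counted, so these zeros do not show that the miRNAs are absent. Of the 4 listed white blood cell genes, Mir142 was not found by symbol among the counted genes. The other 3, Mir223, Mir155 and Mir150, summed to 494 and 514 CPM, with 1 higher in replicate 2 and 2 not past the test. The strand opposite Mir142b had 1701 and 2344 counts in replicates 1 and 2, which are not in that sum. The part of any of these in the differences of Mir148a and Mir148b was not tested.

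Mir130a and Mir130b, genes with a related seed, were more abundant than any member. The Mir130 and Mir301 family carries the letters of the Mir148 seed moved by 1 base, as the products of Mir130a and Mir301 show, with bases 2 to 8 in capitals.
miR-148a-3p: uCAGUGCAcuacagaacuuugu
miR-130a-3p: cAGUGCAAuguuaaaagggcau
miR-301a-3p: cAGUGCAAuaguauugucaaagc

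Mir130a, known from vessel-forming cells, reached 33083 ± 2498 CPM, 21.2 times the level of Mir148a, and Mir130b reached 7561 ± 377 CPM (SD, n = 2). Mir301, an intronic miRNA of Ska2, lay near Mir148a in level, at 1703 ± 83.2 CPM. Mir301b lay next to Mir152, at 104 ± 9.23 CPM. Of the 4 genes of this list that were tested, Mir130a was higher in replicate 2, Mir130b and Mir301 were higher in replicate 1 and Mir301b did not pass. Mir301b was listed by family name, and its hairpin holds the same seed letters. The remaining gene of the list, Mir721, was not found by symbol among the counted genes. In the RefSeq table Mir130c, Mir6341 and Mir6389 also have a product with this seed, and each had 0 counts in both libraries.

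The Mir29 genes, which are also known to repress DNA methyltransferases, stood below the Mir148 family. Mir29a had 83.8 ± 14.6 CPM and Mir29c 41.2 ± 4.67 CPM (SD, n = 2). Mir148a exceeded Mir29a by 18.7-fold in mean CPM. Mir29b-1 had 9 and 13 counts and Mir29b-2 had 0 and 3, and RefSeq lists the same miR-29b-3p for both. Multimapping reads entered no gene count, and their part in these low counts was not tested. Of the 4 genes, 2 were tested: Mir29a was higher in replicate 2 and Mir29c did not pass.

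The 3 members lie at single sites on different chromosomes (GRCm38). Mir152 lies on the plus strand at chr11:96850393-96850465, in intron 1 of 8 of Copz2, 517 bases from the start of the transcript Copz2-201 and on its strand. Mir148b lies on the plus strand at chr15:103285125-103285221, in intron 1 of 8 of Copz1, 12215 bases from the start of Copz1-201 and also on its strand. Copz1 and Copz2 encode alternative zeta subunits of the coatomer, the coat of vesicles that travel within the Golgi and back to the endoplasmic reticulum. The intron of Mir152 is 676 bases long and that of Mir148b 16159 bases. No messenger RNA was measured, so the levels of the hosts are not known here.

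Mir148a lies on the minus strand at chr6:51269812-51269910, and no host was found for it among the coding transcripts searched. Noncoding hosts were not searched. The nearest annotated genes that do not overlap it are Gm32479, a long noncoding RNA gene 13.6 kb away, and Gm44402. The latter is a processed pseudogene on the other side, at 302 kb. With Rik and numbered Gm symbols left out, the nearest coding genes on the 2 sides are Nfe2l3 at 163 kb and Npvf at 615 kb. The most abundant member was thus the one without a coding host found. No member has another miRNA gene close by: the nearest lay 352 kb from Mir148a, 65.2 kb from Mir148b and 213 kb from Mir152.

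Neighbouring gene families were kept only where they lay beside more than 1 member, without a comparison with unshared neighbours or other loci. Within that selection, the 3 loci have neighbours in common. Each lies within 1 Mb of a miRNA gene of a Hox cluster, the homeobox genes that set position along the body axis. Mir148b is 248 kb from Hoxc4 and Mir152 is 482 kb from Hoxb1, with 9 and 10 Hox genes inside that window. On the side of that miRNA gene, each member has a gene of the Nfe2 family of leucine zipper factors: Nfe2 26.7 kb from Mir148b, Nfe2l1 20.4 kb from Mir152 and Nfe2l3 163 kb from Mir148a. Each also has a gene for a heterochromatin protein of the HP1 group, with Cbx5 45.3 kb from Mir148b, Cbx1 41.8 kb from Mir152 and Cbx3 200.4 kb from Mir148a.

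Other gene families were present beside 2 of the 3. The ribonucleoproteins Hnrnpa1 and Hnrnpa2b1 lie 38.4 kb from Mir148b and 191 kb from Mir148a. The sorting nexins Snx11 and Snx10 lie 72.8 kb from Mir152 and 254 kb from Mir148a, and the adaptors Skap1 and Skap2 lie 91.3 and 588 kb from them. Osbpl7 and Osbpl3, of the oxysterol-binding family, lie 200.2 kb from Mir152 and 814 kb from Mir148a. Mir152 and Mir148b shared neighbours of the Calcoco, Atp5g and Sp groups in addition to their Copz hosts. The families were found by a shared symbol stem, which also matched Gpr and Prr, names that do not mark a family by descent.

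**Figure D4:**
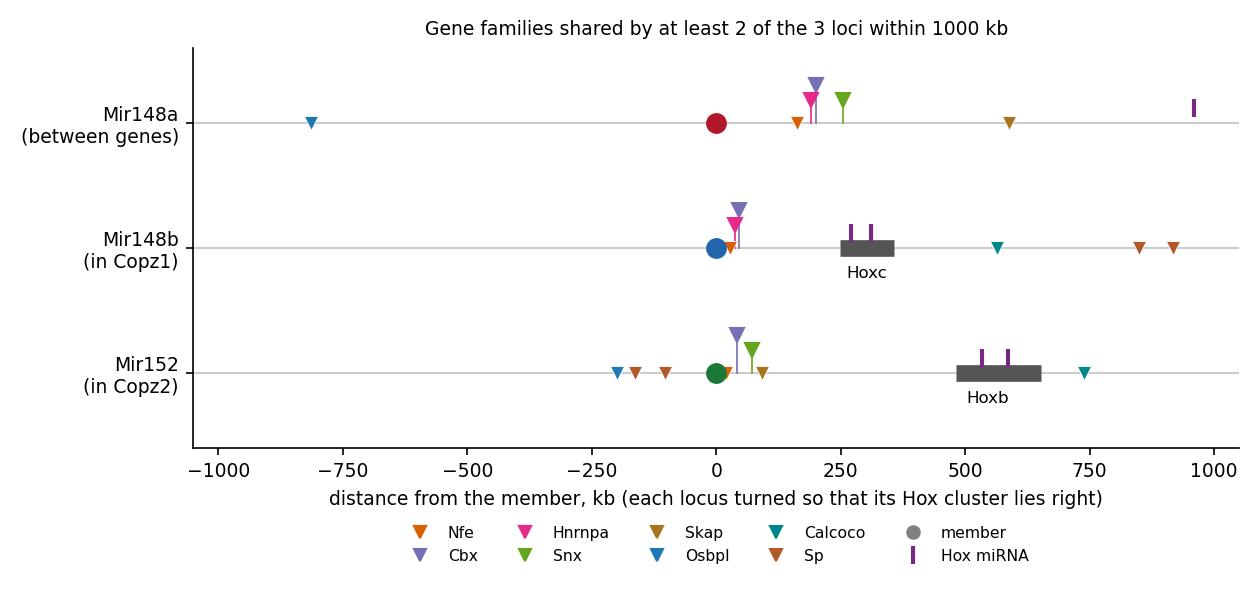
Distance in kb from each member (circle) to the nearer end of neighbouring genes of shared families. Each locus is turned so that its Hox-cluster miRNA genes lie to the right. Grey bars are the Hox genes beside Mir148b and Mir152, and purple ticks are Hox-cluster miRNA genes. Triangles are genes, with those of the Cbx, Hnrnpa and Snx families raised wherever they are drawn. Atp5g, Gpr, Prr and Copz genes are not drawn. Mir148a is labelled as between genes because no coding host was found for it. The Nfe2 and Cbx family genes lie to the right of the member at all 3 loci, at 20.4 to 200.4 kb.

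The miRNA genes inside those Hox clusters can be set beside the members, without a test of the difference between them. Mir10a, 533 kb from Mir152, had 1737 and 404 CPM in replicates 1 and 2, where Mir152 had 99.1 and 111 CPM. Mir615, 270.1 kb from Mir148b, was at 140 and 61.2 CPM, a 2.28-fold difference, where Mir148b differed by 1.12-fold in the same direction. Mir196b, 960.2 kb from Mir148a, was at 47.1 and 47.8 CPM and did not pass, while Mir148a was higher in replicate 2. Mir10b, of the Hoxd cluster, was higher in replicate 1 at 2722 against 1931 CPM. In all, of 6 Hox-cluster miRNA genes 5 were tested, 3 were higher in replicate 1 and 2 did not pass, near the 55% of all tested genes that passed, and Mir196a-1 was below the minimum with 8 and 1 counts.

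On the strand opposite the members no read was counted in either library. A count of 0 allows up to 3 counts, or 0.658 CPM in replicate 1 and 0.520 CPM in replicate 2. Counts without regard to strand were therefore equal to the same-strand counts at all 3 genes.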

How the data were processed

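MicroRNA sequencing gave 1 count file for each of the 2 libraries. The deposited values are raw read counts per gene on mm10 with annotation M4, per the deposited description files; the aligner is not given in the sources used here. The files have no header, and columns were read from their layout as counts without regard to strand, on the gene's strand and on the opposite strand. The same-strand column was used. The 4 read classes stayed out of all totals. Replicate 1 had 4562135 counts over all genes and replicate 2 had 5771249, in each case 44.1% of the reads in the file.

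Names and positions came from GENCODE M21 (GRCm38), which matched 1894 of 1973 identifiers, and all 3 members matched RefSeq miRNA sequences by symbol and position. Genes with at least 10 counts in both libraries entered TMM scaling (edgeR 4.0.16 in R 4.3.3) and an exact binomial test, two-sided, with Benjamini-Hochberg adjustment at 0.05. The test was tried on simulated counts that held counting error only, so that trial does not cover other variation between libraries. Wilson and Clopper-Pearson intervals are at 95%. Distances between genes are Euclidean, on log2 CPM with 0.5 reads added. Hairpins were folded with RNAfold 2.7.2. The named genes were the members, the 3 nearest genes of each, the next above and below by mean, the lists given and neighbouring gene families within 1 Mb; some neighbours of Mir148a are not reported here. Members and lists were chosen with earlier results of these data known. Alternatives were DESeq2 1.42.0 size factors, total counts, TMM over all genes, count minimums of 1 and 100, the unstranded column, other totals, and leaving out each library.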

Additional observations from a re-analysis of the deposited data

How the results depend on the processing

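The order of the members was the same when either library was left out. Most other alternatives that gave levels could not have changed it within a library. Other totals and TMM scaling divide all members of a library by the same number. The unstranded counts of the members equal their same-strand counts. Per 1000000 of all reads in the file, read classes included, the levels were 689 for Mir148a, 71.8 for Mir148b and 46.3 for Mir152, and the family held 0.0807% of reads; the larger denominator gives these values. By the unstranded column the ranks were 90, 171 and 195, because genes with opposite-strand counts enter, and among single-locus genes, an alternative chosen after seeing the data, they were 67, 129 and 144, because fewer genes are ranked. Leaving out a library gave ranks of 81 to 84 for Mir148a.

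The difference of Mir148b between the libraries lost its call under 4 settings, in the exact binomial test. Its log2 ratio was -0.147 with DESeq2 size factors (adjusted p = 0.0675), -0.141 at a count minimum of 1 (adjusted p = 0.114), -0.149 at a minimum of 100 (adjusted p = 0.0526) and -0.141 with TMM over all genes (adjusted p = 0.0823), the last chosen after seeing the data. Each setting moved the scaling, and the minimums also changed the number of genes tested. It passed with total counts and the unstranded column. No call was made for Mir152 under any setting (adjusted p = 0.0621 to 0.111). Of 62 alternative values, 47 kept direction and call or moved by less than the spread, 11 moved by more and 4 lost the call. None reversed, which only a difference between the libraries could do. Many of the 47 were fixed in advance, so this tally is no measure of robustness. With 2 libraries, leaving 1 out always moves a mean level, share or ratio by less than the SD. The unstranded column cannot change ratios between members, as no opposite-strand read was counted at them. With 452 to 886 counts, depth limits Mir148b and Mir152 more than Mir148a. No paired analysis was possible because there is 1 group, so no contrast between groups could be blocked; the ratios between members are paired within each library.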
